A study of Mus musculus with 6 samples.

Results

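Creatine and polyamine metabolism was followed through 10 genes, selected by symbol from the 18046 genes listed in each of 6 RNA sequencing libraries. The genes were Gatm, Gamt, Slc6a8 and Ckb for creatine synthesis, transport and phosphorylation, and Odc1, Srm, Sms, Amd1, Sat1 and Azin1 for polyamine synthesis and breakdown. The list sets no threshold on any value, but it was drawn up with the differences between LPC and vehicle known. The members' values are therefore a description, and the p-values printed with them, from a fit over all genes, say where each gene lay in that fit and are no independent evidence about the list.

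The cells were naive CD4+ T cells from the spleen of C57BL/6 mice with a labelled age of 3 weeks. Activation in every library was by CD3 and CD28 antibodies for 3 days, in a T helper 1 (Th1) polarizing culture. Vehicle was present in 3 libraries and LPC at 20 µM in the other 3, and the comparison asks which transcripts differ when Th1 cells form in the presence of LPC. Neither the full name of LPC nor the vehicle is given in the labels, and whether each library had its own animal or culture is not stated. The p-values thus measure only the spread between these libraries, which may be technical.

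Creatine is made in 2 steps. Glycine amidinotransferase, encoded by Gatm, joins arginine and glycine to form guanidinoacetate and ornithine, and guanidinoacetate methyltransferase, encoded by Gamt, methylates the product with S-adenosylmethionine. Creatine kinases then move phosphate between ATP and creatine, which buffers the energy supply of a cell. Polyamines are small positively charged molecules that bind nucleic acids and that dividing T cells need. Ornithine decarboxylase (Odc1) makes putrescine, and spermidine synthase (Srm) and spermine synthase (Sms) lengthen it with propylamine groups from S-adenosylmethionine that has been decarboxylated by the product of Amd1.

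Values are FPKM, which are fragment numbers divided by exon length and by the mapped reads of the library. A value thus says what share of a library a gene took for its length. A gene entered the test when at least 3 libraries had it at 1 FPKM or above, which held for 10138 genes and for 8 of the 10 members. Log2 changes are LPC minus vehicle on the log2(FPKM + 1) scale, which understates the change of low genes. A gene was called changed at a limma adjusted p under 0.05. The FPKM sums of the libraries were 556561 to 641026, with 10002 to 10139 genes at 1 or more. LPC replicate 3 stood apart, with the highest sum and with 17.9% of genes at 0 where the others had 19.4% to 20.2%, so the values without it are given beside the called members.

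T cell genes were abundant in every library. The 6 listed T cell markers summed to 984 to 1016 FPKM with vehicle and 950.3 to 1023 with LPC, with 0 of 6 called. Cd4 was at 185 to 205 FPKM with vehicle and 144 to 177 with LPC. Of the CD8 T cell markers, Cd8a was at 0.33 FPKM or less. Cd8b1 was at 13.35 to 14.19 FPKM with vehicle and 10.57 to 12.55 with LPC, and was not called (log2 change -0.22, limma adjusted p = 0.142). Summed B cell markers reached at most 1.05 FPKM, and those of neutrophils, dendritic cells and natural killer cells at most 0.15, with Elane, Klra8 and Ncr1 listed at 0 throughout. Macrophage markers, mostly Cd68, summed to 3.52 to 5.53 FPKM with vehicle and 3.26 to 4.84 with LPC. Markers of fibroblasts and endothelium, mostly Pecam1, summed to 5.13 to 6.18 and 5.92 to 7.01 FPKM. The others of that list were low, with Cdh5 at 0.01 FPKM or less, Col1a2 at 0.05 or less and Col1a1 at 0.41 or less. Erythroid markers summed to 0.15 to 0.23 and 0.29 to 0.62 FPKM. Of the macrophage markers, Lyz2 was at 0.05 or less with vehicle and 0.15 to 0.30 FPKM with LPC. Cd68 lay the other way without passing, at 3.47 to 5.4 and 2.99 to 4.47 FPKM. Csf1r, Adgre1 and Itgam were at 0.08 FPKM or less in every library. The part of such other cells in the results was not tested. In bulk RNA, fewer cells of a type and less RNA per cell cannot be told apart.

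Of the 8 tested members 3 rose with LPC, Gatm, Ckb and Srm, and none fell. Over all tested genes, 5.82% were called higher and 7.91% lower, 42.4% of the calls being higher, or 53.1% after median centring of the libraries. At an unadjusted p under 0.05, 3 members were higher and 0 lower, and the share of all tested genes at that threshold was not counted. The median log2 change was -0.03 over the 8 tested members and -0.04 over all tested genes. The 2 members under the filter, Gamt and Slc6a8, are described by their values below.

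**Figure D1:**
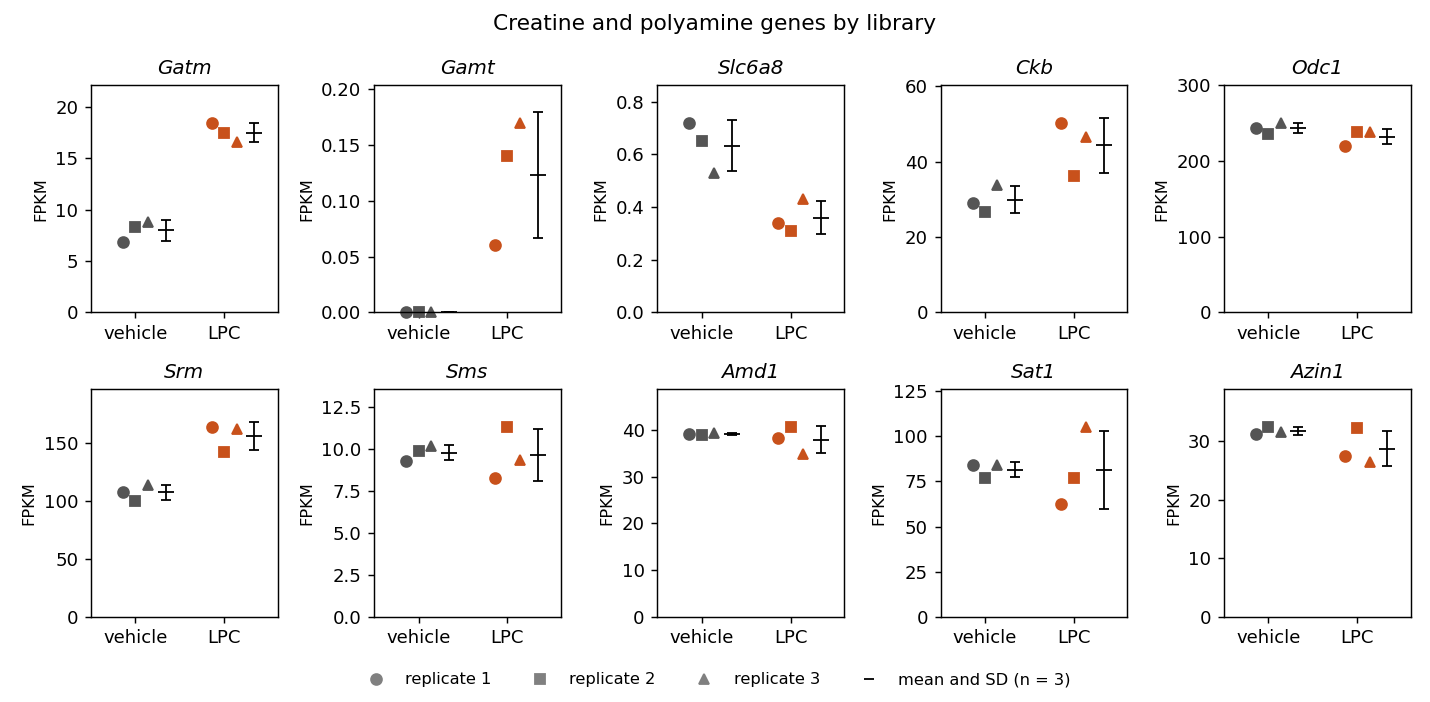
FPKM of the 10 genes in each library, on axes that start at 0, with vehicle in grey and LPC in orange and marker shapes for the replicate numbers of the labels. Bars are the mean and SD of 3 libraries. The 3 LPC libraries lay above all vehicle libraries for Gatm, Ckb, Srm and Gamt and below them for Slc6a8, and the groups overlapped for the other 5 genes. Of all tested genes, 13.7% had every LPC library above and 20.7% every LPC library below. Gamt and Slc6a8 were under the filter, and the LPC values of Gamt stand for about 1.1 to 3.1 reads.

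The stretches of 250 bases before the annotated start are shown for Gatm and Ckb, the members that rose and have an entry, and for Sms and Amd1, members that did not pass the test. They come from RefSeq on GRCm38.p6, which held promoters for 7 of the 10 members, and are written 5′ to 3′ on the strand of the gene, the minus strand for all 4. Capitals mark CCAAT, the CCAAT box, and TATAAA, the TATA box, searched on both strands, so that CCAAT on the other strand reads ATTGG. Capitals also mark the E-box CACGTG.
Gatm, chr2:122611278-122611527: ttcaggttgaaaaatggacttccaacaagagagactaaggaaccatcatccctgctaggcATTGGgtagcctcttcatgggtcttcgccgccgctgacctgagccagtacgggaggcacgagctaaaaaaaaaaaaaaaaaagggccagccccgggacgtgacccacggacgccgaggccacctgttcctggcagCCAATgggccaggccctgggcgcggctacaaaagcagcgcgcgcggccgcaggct
Ckb, chr12:111672339-111672588: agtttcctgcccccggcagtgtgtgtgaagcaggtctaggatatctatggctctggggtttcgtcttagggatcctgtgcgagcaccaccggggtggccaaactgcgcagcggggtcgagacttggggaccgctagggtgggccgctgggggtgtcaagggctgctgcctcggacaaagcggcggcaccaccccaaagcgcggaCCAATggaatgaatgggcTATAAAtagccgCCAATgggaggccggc
Sms, chrX:157492288-157492537: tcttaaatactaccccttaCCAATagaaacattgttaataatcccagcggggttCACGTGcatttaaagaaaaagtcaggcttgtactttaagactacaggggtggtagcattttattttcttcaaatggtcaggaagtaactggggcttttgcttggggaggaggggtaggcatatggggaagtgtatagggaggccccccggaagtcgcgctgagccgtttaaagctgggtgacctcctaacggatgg
Amd1, chr10:40302189-40302438: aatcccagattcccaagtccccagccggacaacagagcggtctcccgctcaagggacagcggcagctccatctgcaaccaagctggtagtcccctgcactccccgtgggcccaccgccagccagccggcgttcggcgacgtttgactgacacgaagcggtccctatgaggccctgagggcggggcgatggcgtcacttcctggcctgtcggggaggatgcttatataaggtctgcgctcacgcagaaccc
Gatm had CCAAT 55 bases before the start and, on the other strand, 190 bases before it. Ckb had CCAAT at 46 and 16 bases before the start, and TATAAA at 28. Sms, which did not pass, had CCAAT at 231 bases and CACGTG at 196 bases before the start, and Amd1 had none of the 3 motifs. Only exact strings were searched, so that a near match to TATAAA, such as tatataag in the Amd1 stretch, was not counted. CCAAT was thus present both in members that rose and in 1 that did not pass. The entries of Sat1, Odc1 and Gamt and a second entry of Sms held none of the 3 motifs. Those of Odc1 and Gamt and the second of Sms lie partly or wholly inside the annotated gene. The Sms entry shown had 47.2% GC and the second 75.2%, so the motifs given for Sms depend on which start is taken. Of 32851 promoter entries, 33.8% held CCAAT on either strand within these 250 bases, 12.4% TATAAA and 6.02% CACGTG. A match is a description of letters and not a site of binding.

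Gatm, the gene of the first and committed step of creatine synthesis, rose most among the members. It lies on chromosome 2 of GRCm38 at 122594473 to 122611277. Gatm was listed at 6.84, 8.32 and 8.84 FPKM in vehicle replicates 1 to 3 and at 18.5, 17.4 and 16.6 FPKM in LPC replicates 1 to 3. The lowest LPC library thus lay well above the highest vehicle library, and the LPC libraries were close to each other. Mean FPKM was 8.0 ± 1.04 with vehicle and 17.5 ± 0.941 with LPC (SD, n = 3 each), a ratio of means of 2.19. The log2 change of Gatm was 1.04 (SE 0.10, 95% interval 0.82 to 1.27, limma adjusted p = 9.36e-05). That was the 12th largest rise of all tested genes, and Gatm was among the 15 genes (0.148%) called higher at over 2-fold. The call held in all 14 alternative fits, with the log2 change at 0.95 to 1.11 when each library was left out and 1.08 without LPC replicate 3.

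Gamt, which completes creatine synthesis, was close to absent. Gamt was listed at 0 in all 3 vehicle libraries and at 0.06, 0.14 and 0.17 FPKM in LPC replicates 1 to 3. With an estimated depth of 18.55 to 18.95 M reads and a transcript of 988 bases, these values stand for about 1.1, 2.6 and 3.1 reads. The gene was under the filter and was not tested, and no fold is given against a group listed at 0. The first enzyme of the pathway was therefore listed at 6.84 FPKM or more in every library and the second at 0.17 or less.

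Slc6a8, the membrane transporter that takes up creatine, was also under the filter. Slc6a8 was listed at 0.72, 0.65 and 0.53 FPKM with vehicle and at 0.34, 0.31 and 0.43 with LPC. All LPC values lay below all vehicle values, as they did for 20.7% of all tested genes. Mean FPKM was 0.633 ± 0.0961 and 0.360 ± 0.0624 (SD, n = 3 each), a ratio of 0.568. Over a transcript of 3964 bases this corresponds to about 39.4 to 53.7 reads with vehicle and 23.0 to 31.6 with LPC. In a fit over all listed genes without a filter the log2 change of Slc6a8 was -0.26 (limma adjusted p = 0.101), and with a pseudocount of 0.1 it was -0.67 (adjusted p = 0.122), so it did not pass. The lncRNA gene Gm32261 overlaps Slc6a8 in the annotation, and reads from overlapping genes are less certain.

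Ckb, the cytosolic creatine kinase best known from brain, rose with LPC. It lies on chromosome 12 at 111669355 to 111672338. Ckb was listed at 29.1, 26.7 and 33.7 FPKM in vehicle replicates 1 to 3 and at 50.3, 36.1 and 46.6 FPKM in LPC replicates 1 to 3. The groups did not overlap, but LPC replicate 2 lay just above the highest vehicle library. The log2 change was 0.55 (SE 0.12, 95% interval 0.29 to 0.81, limma adjusted p = 0.0116), a ratio of means of 1.49. Ckb did not pass without LPC replicate 1 (0.45, adjusted p = 0.0631) or without a filter on low values (0.55, adjusted p = 0.151), and passed without LPC replicate 3 (0.51, adjusted p = 0.0200).

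The mitochondrial creatine kinase gene Ckmt1, not a member of the set of 10 genes, also rose. It was listed at 1.65, 1.81 and 2.41 FPKM with vehicle and at 4.25, 3.15 and 4.77 FPKM with LPC (log2 change 0.77, SE 0.13, limma adjusted p = 0.00345). Again no LPC library overlapped a vehicle library, and LPC replicate 2 was the lowest of the LPC libraries. Ckmt1 did not pass without a filter on low values (adjusted p = 0.101). The muscle creatine kinase gene Ckm stayed under the filter, with at most 0.48 FPKM.

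Odc1, which makes putrescine and is commonly induced in growing cells, had the highest level of the members. Odc1 was listed at 244, 236 and 250.1 FPKM in vehicle replicates 1 to 3 and at 219.9, 238 and 238 FPKM in LPC replicates 1 to 3. The groups overlapped, and the spread within each was small. The log2 change of Odc1 was -0.07 (95% interval -0.26 to 0.12, limma adjusted p = 0.632), an interval that leaves room for small changes in either direction. Its level was at the 97.1 percentile of tested genes. The snoRNA gene Gm22748 overlaps Odc1.

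Amd1 encodes the decarboxylase that supplies propylamine groups to both synthases. It was listed at 39.2, 39.0 and 39.5 FPKM with vehicle and at 38.4, 40.7 and 34.9 FPKM with LPC, so that the LPC libraries lay on both sides of the vehicle libraries. The log2 change was -0.05 (95% interval -0.24 to 0.14, limma adjusted p = 0.753), and it was 0.01 without LPC replicate 3. Amd2, a near copy of Amd1 whose reads may be shared out between them by estimate, was listed at 0.73 FPKM or less.

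Srm, the spermidine synthase gene, was the polyamine gene that rose. It lies on chromosome 4 at 148591513 to 148594619. Srm was listed at 108, 100.3 and 113 FPKM in vehicle replicates 1 to 3 and at 164, 142 and 162 FPKM in LPC replicates 1 to 3. Every LPC library was higher than every vehicle library, as for 13.7% of all tested genes. Replicate 2 was the lowest of each group, and it also had the lowest FPKM sum of each group. The mean was 107 ± 6.58 FPKM with vehicle and 156 ± 11.95 with LPC (SD, n = 3 each), a ratio of 1.46. The log2 change was 0.54 (SE 0.09, 95% interval 0.34 to 0.74, limma adjusted p = 0.00344). Srm passed with each library left out in turn (log2 change 0.49 to 0.60, and 0.51 without LPC replicate 3) but not without a filter on low values (0.54, adjusted p = 0.0568).

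Sms, which turns spermidine into spermine, had a far lower level than Srm. It was listed at 9.27, 9.86 and 10.1 FPKM with vehicle and at 8.24, 11.3 and 9.34 FPKM with LPC. The LPC libraries spread around the vehicle libraries, and the log2 change was -0.03 (95% interval -0.27 to 0.21, limma adjusted p = 0.896). Its sign turned with the scaling, to 0.03 with quantile normalization and 0.02 with median centring. Within a library, log2(FPKM + 1) of Srm exceeded that of Sms by 3.41, 3.22 and 3.36 with vehicle and by 4.16, 3.54 and 3.98 with LPC. The distance between the synthase transcripts was thus wider in each LPC library than in any vehicle library, and the difference was not tested. With each library's trend with GC share and length removed, the log2 change was 0.43 for Srm and 0.06 for Sms, so that the genes, with 59.8% and 43.5% GC, lay closer together.

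**Figure D2:**
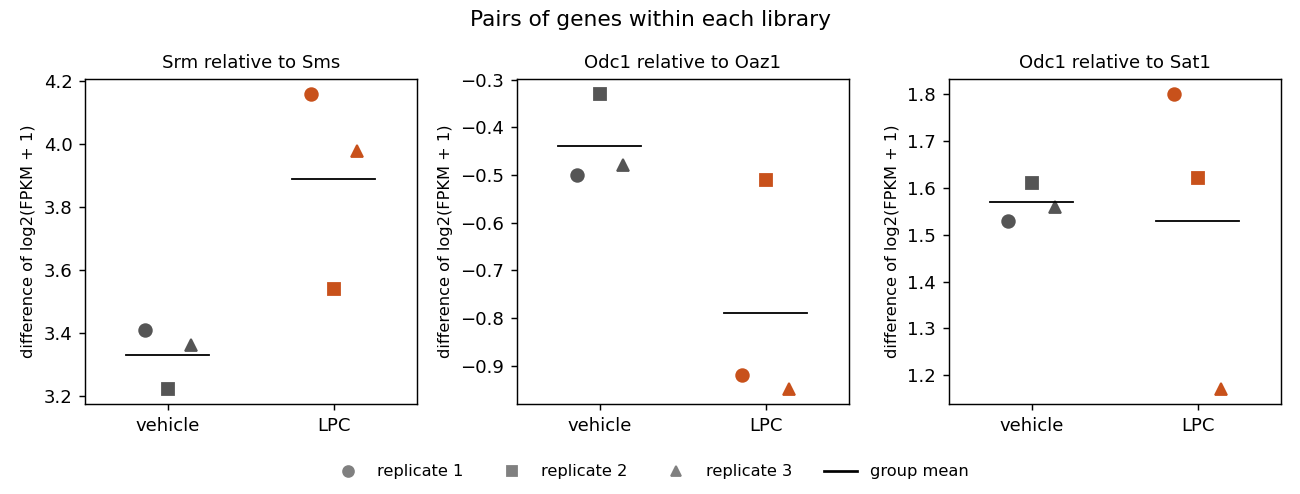
Difference in log2(FPKM + 1) between 2 genes of the same library for Srm and Sms, Odc1 and Oaz1, and Odc1 and Sat1, with vehicle in grey, LPC in orange, shapes for replicates and lines for group means; the vertical axes do not start at 0. Srm relative to Sms ran from 3.22 to 3.41 with vehicle and from 3.54 to 4.16 with LPC, whereas Odc1 relative to Sat1 ran from 1.17 to 1.80 with LPC, on both sides of the vehicle libraries.

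Sat1 encodes the acetyltransferase that marks spermidine and spermine for export or breakdown. Sat1 was listed at 83.9, 76.7 and 84.2 FPKM in vehicle replicates 1 to 3 and at 62.4, 76.7 and 105 FPKM in LPC replicates 1 to 3. The LPC libraries held both the lowest and the highest value, and their coefficient of variation was 26.8%, against 5.20% with vehicle. The log2 change was -0.03 (95% interval -0.34 to 0.27, limma adjusted p = 0.899). It moved to -0.23 without LPC replicate 3, to 0.14 without LPC replicate 1 and to 0.01 with median centring, and passed in none of the 14 alternatives. Sat1 had the widest interval of the 6 polyamine members.

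Azin1 encodes antizyme inhibitor, a relative of ornithine decarboxylase that has lost the enzyme activity and frees the decarboxylase from its antizyme. Azin1 was listed at 31.2, 32.5 and 31.6 FPKM with vehicle and at 27.5, 32.3 and 26.5 FPKM with LPC. LPC replicates 1 and 3 lay below the vehicle libraries and LPC replicate 2 among them. The log2 change was -0.14 (95% interval -0.34 to 0.06, limma adjusted p = 0.323), and -0.01 once the trend with GC share and length was removed.

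Oaz1, the antizyme gene that opposes Azin1 and steers ornithine decarboxylase to degradation, was abundant. It was listed at 346, 296 and 350 FPKM with vehicle and at 417, 340 and 462 FPKM with LPC. The lowest LPC value lay among the vehicle values, and the log2 change of 0.29 did not pass (95% interval 0.03 to 0.54, limma adjusted p = 0.125). It passed without LPC replicate 2 (0.41, adjusted p = 0.0255) and with the replicate number as a block (0.29, 0.0140). Calls over all genes also rose in these fits, from 1392 to 2026 and 2841. Odc1 relative to Oaz1, as a difference in log2(FPKM + 1), was -0.50, -0.33 and -0.48 with vehicle and -0.92, -0.51 and -0.95 with LPC. All LPC libraries were lower, LPC replicate 2 by a narrow margin. This difference was not tested, how often other gene pairs separate in this way was not counted, and neither gene was called.

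Since FPKM is scaled for length, the levels can be ordered across the members. Over the 6 libraries the means were 238 FPKM for Odc1, 132 for Srm, 81.5 for Sat1, 38.6 for Amd1, 37.1 for Ckb, 30.3 for Azin1, 12.7 for Gatm, 9.69 for Sms, 0.497 for Slc6a8 and 0.0617 for Gamt. Odc1, Srm and Sat1 kept their order in every library. The middle of the order differed between the groups. With vehicle, Ckb overlapped Azin1 and lay below Amd1 in every library. With LPC, Ckb lay above Azin1 in every library and overlapped Amd1. Gatm lay below Sms in each vehicle library and above it in each LPC library.

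**Figure D3:**
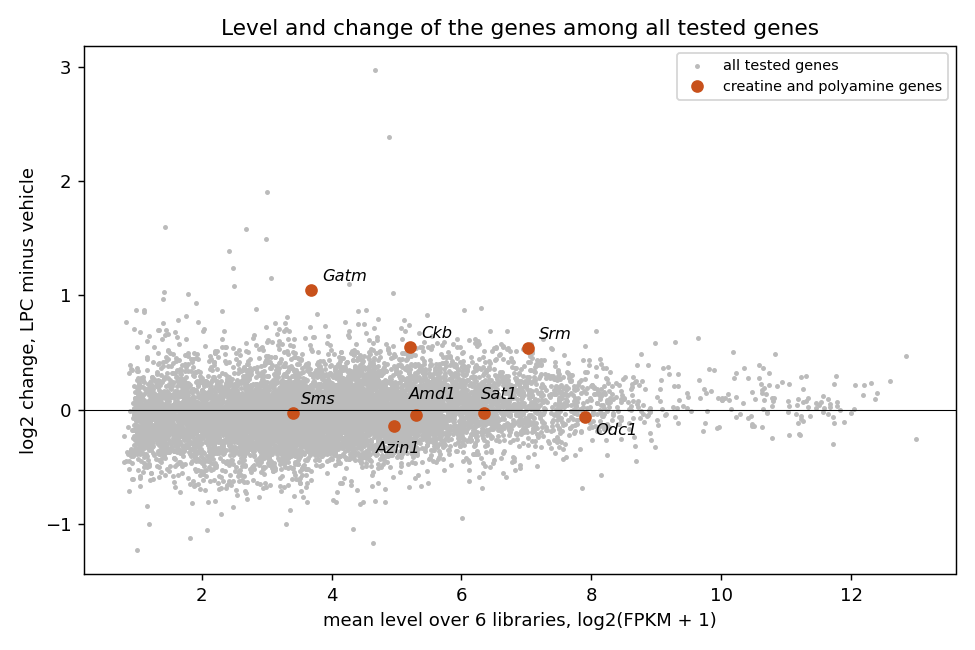
Log2 change, LPC minus vehicle, against the mean log2(FPKM + 1) of 6 libraries for the 10138 tested genes (grey) and the 8 tested members (orange). Gatm at 1.04 lies at the upper edge of genes of like level, Ckb (0.55) and Srm (0.54) lie above most genes, and the other 5 members lie between -0.14 and -0.03.

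By size, the absolute change of Gatm exceeded that of 99.8% of tested genes, that of Ckb 97.3% and that of Srm 97.0%. Azin1 exceeded 48.9%, Odc1 25.4%, Amd1 18.1%, Sat1 13.0% and Sms 10.3%. The members thus fell into 3 genes with changes far out among all genes and 5 whose changes were smaller than those of most genes. Across all tested genes the change rose with the GC share of the transcript, from a median of -0.12 in the fifth with the lowest GC share (31.0% to 43.7%) to 0.05 in the fifth with the highest (55.4% to 71.3%). Ckb (61.7% GC) and Srm (59.8%) were the most GC-rich of the tested members, and Gatm (43.2%) was not. These shares are of the longest annotated transcript of each gene. For Ckb it has 2839 bases and covers nearly the whole gene, and which transcript the cells made was not tested. With each library's trend with GC share and length removed, the log2 change was 1.10 for Gatm (limma adjusted p = 3.52e-04), 0.50 for Ckb (0.00882) and 0.43 for Srm (0.00161), all called.

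The other genes of these pathways were taken from a list of 41 genes made from their roles, of which 38 were listed and 29 tested. This list too was made with earlier results of these data known, so its counts are a description and no independent evidence. Of these 29 genes 6 rose with LPC and none fell by the limma fit, 20.7% called against 13.7% of all tested genes in either direction. At an unadjusted p under 0.05, 10 were higher and 2 lower. The share of all tested genes at that threshold was not counted, so these 2 numbers cannot be set against it. The median log2 change was 0.05. The 6 genes were Ckmt1, Dohh, Asl, Atp13a2, Mat2a and Dhps. Except for Mat2a (43.1% GC) they were GC-rich, at 54.9% to 62.5%. With each library's trend with GC share and length removed, their log2 changes were 0.71, 0.49, 0.47, 0.43, 0.49 and 0.31 in that order. All 6 were still called, and the change was smaller than before for each but Mat2a. Without LPC replicate 1 the number that rose was 3, and without a filter on low values it was 1. Calls over all genes fell in these fits too, from 590 higher to 306 without LPC replicate 1 and to 108 without the filter.

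**Figure D4:**
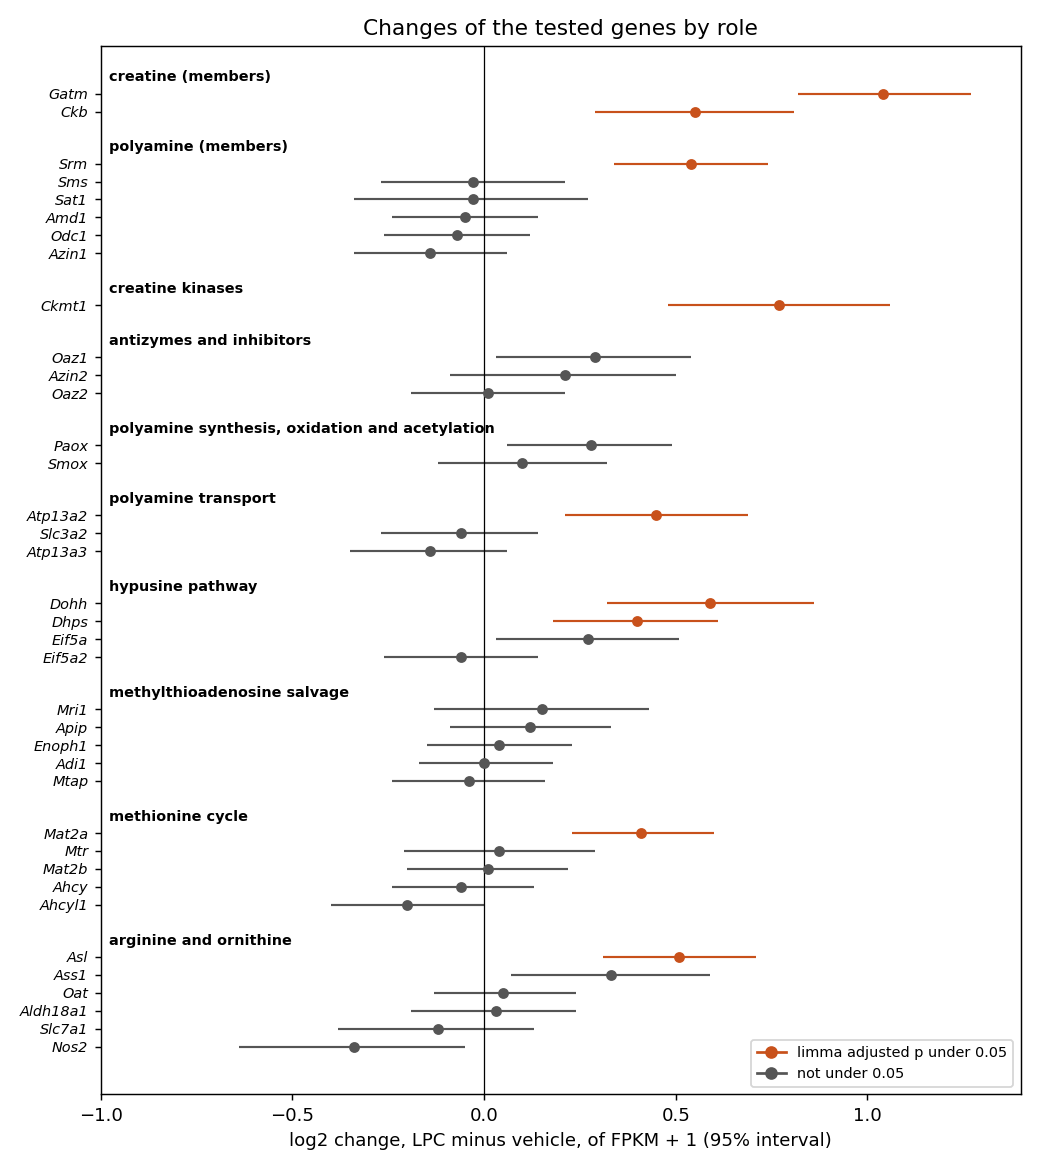
Log2 change, LPC minus vehicle, of log2(FPKM + 1) with its 95% interval for the 8 tested members and 29 further tested genes, grouped by role; orange marks a limma adjusted p under 0.05. The 9 orange genes all lie above 0, at 0.40 to 1.04, and the methylthioadenosine salvage genes lie between -0.04 and 0.15.

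Hypusine is a modified lysine made from spermidine on the translation factor eIF5A, by deoxyhypusine synthase (Dhps) and deoxyhypusine hydroxylase (Dohh). Both enzyme genes rose, and they were the 2 called of the 4 tested hypusine genes, 50% beside 13.7% of all tested genes. The other 2 were Eif5a and Eif5a2, and Eif5a2 had a log2 change of -0.06 (limma adjusted p = 0.709). Dohh was listed at 35.4, 30.4 and 36.3 FPKM with vehicle and at 57.5, 41.0 and 58.5 FPKM with LPC (log2 change 0.59, SE 0.13, limma adjusted p = 0.00935). Dhps was listed at 25.3, 22.2 and 25 FPKM with vehicle and at 33.2, 28.4 and 35.1 FPKM with LPC (0.40, SE 0.10, adjusted p = 0.0199). For both genes every LPC library was above every vehicle library, as for 13.7% of all tested genes. Replicate 2 was the lowest in each group, and it also had the lowest FPKM sum of each group (556561 with vehicle and 562046 with LPC). Their substrate gene Eif5a was listed at 1254, 1224 and 1261 FPKM with vehicle and at 1478, 1375 and 1675 FPKM with LPC, without overlap, but did not pass (0.27, adjusted p = 0.122). Eif5a passed without LPC replicate 2 (0.34, adjusted p = 0.0492) and with the replicate block (0.27, 0.0325). Calls over all genes also rose in these fits, from 1392 to 2026 and 2841. Dohh did not pass without LPC replicate 1 (adjusted p = 0.0562). Dhps lost its call when vehicle replicate 1 (0.0564), vehicle replicate 2 (0.102) or LPC replicate 1 (0.0723) was left out. Neither passed without a filter on low values (adjusted p of 0.147 for Dohh and 0.122 for Dhps).

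S-adenosylmethionine feeds both creatine and polyamine synthesis, and Mat2a encodes the catalytic subunit of the enzyme that makes it outside the liver. Mat2a rose from 54.8, 53.7 and 52.2 FPKM with vehicle to 67.9, 77.7 and 69.8 FPKM with LPC (log2 change 0.41, SE 0.09, limma adjusted p = 0.00896). The groups were well apart, and Mat2a passed with each library left out, but not without a filter on low values (adjusted p = 0.0566). Its regulatory subunit gene Mat2b did not pass (0.01, adjusted p = 0.968). Of the 5 tested methionine cycle genes Mat2a was the 1 called, a share of 20% beside 13.7% of all tested genes, and Ahcyl1 lay the other way without passing (-0.20, adjusted p = 0.161). Of the 5 methylthioadenosine salvage genes, which recover the by-product of both polyamine synthases, none was called in either direction or had an unadjusted p under 0.05. Mtap, which takes the first step, was listed at 25.7 ± 0.990 and 25.1 ± 2.35 FPKM (SD, n = 3 each).

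Arginine is the precursor of both creatine and ornithine. Asl, which releases arginine from argininosuccinate, rose from 9.45, 9.94 and 10.4 FPKM with vehicle to 15.5, 13.6 and 14.6 FPKM with LPC (log2 change 0.51, SE 0.09, limma adjusted p = 0.00458). Its LPC and vehicle libraries were well apart, and it passed in all 14 alternative fits. Ass1, the preceding enzyme, had means of 44.8 ± 8.11 FPKM with vehicle and 56.4 ± 6.24 with LPC, and missed the threshold (0.33, adjusted p = 0.0841), but passed without vehicle replicate 3 (0.47, 0.0199) and with the replicate block (0.33, 0.0232). The arginine transporter gene Slc7a1 had means of 91.3 ± 8.52 and 84.3 ± 14.1 FPKM, and missed it too (-0.12, adjusted p = 0.508). The arginase genes were near 0, with Arg1 listed at 0 in every library and Arg2 at 0.11 FPKM or less. Nos2, the inducible nitric oxide synthase that also consumes arginine, was listed at 9.74, 9.85 and 11.6 FPKM with vehicle and at 9.24, 9.08 and 5.96 FPKM with LPC. Its LPC libraries were all below its vehicle libraries, and LPC replicate 3 was the lowest. It did not pass (-0.34, adjusted p = 0.114, and -0.16 without LPC replicate 3) except with the replicate number as a block (adjusted p = 0.0436). That block raised the calls over all genes from 1392 to 2841. Of the 6 tested arginine and ornithine genes Asl was the 1 called, or 16.7%, near the 13.7% of all tested genes.

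Polyamines are also oxidized and moved across membranes. Smox, which oxidizes spermine, had a mean of 179 ± 9.15 FPKM with vehicle and of 193 ± 23.6 FPKM with LPC (SD, n = 3 each) and did not pass (log2 change 0.10, limma adjusted p = 0.543). Paox, which oxidizes acetylated polyamines, was far lower at 17.0 ± 1.13 and 20.8 ± 2.09 FPKM. Its LPC libraries were all above its vehicle libraries, as for 13.7% of tested genes, but it did not pass (0.28, adjusted p = 0.0798). It passed without LPC replicate 2 (0.36, adjusted p = 0.0258), with GC and length trends removed (0.34, 0.0458) and with the replicate block (0.28, 0.0146). Calls over all genes also rose in these fits, from 1392 to 2026, 2066 and 2841 in that order. Atp13a2, a lysosomal polyamine exporter gene, rose from 5.70, 5.25 and 6.77 FPKM with vehicle to 9.49, 7.55 and 8.28 FPKM with LPC (0.45, SE 0.11, adjusted p = 0.0198). Its groups did not overlap. Its call was lost when LPC replicate 1 (adjusted p = 0.0926) or either of vehicle replicates 1 (0.0834) and 2 (0.0919) was left out, or without a filter on low values (0.136). The related transporter gene Atp13a3 did not pass (-0.14, adjusted p = 0.334).

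The calls differed in how far they rested on single libraries. Among the members, Gatm and Srm passed with any library left out, and Ckb lost its call without LPC replicate 1. Among the members not called, leaving out 1 library turned the sign of Sms, Amd1 and Sat1, and the log2 changes of Odc1 and Azin1 stayed below 0, at -0.09 to -0.03 and at -0.22 to -0.09. In the left-out fits all 5 stayed above an adjusted p of 0.05, the lowest being 0.0787 for Azin1 without LPC replicate 2.

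**Figure D5:**
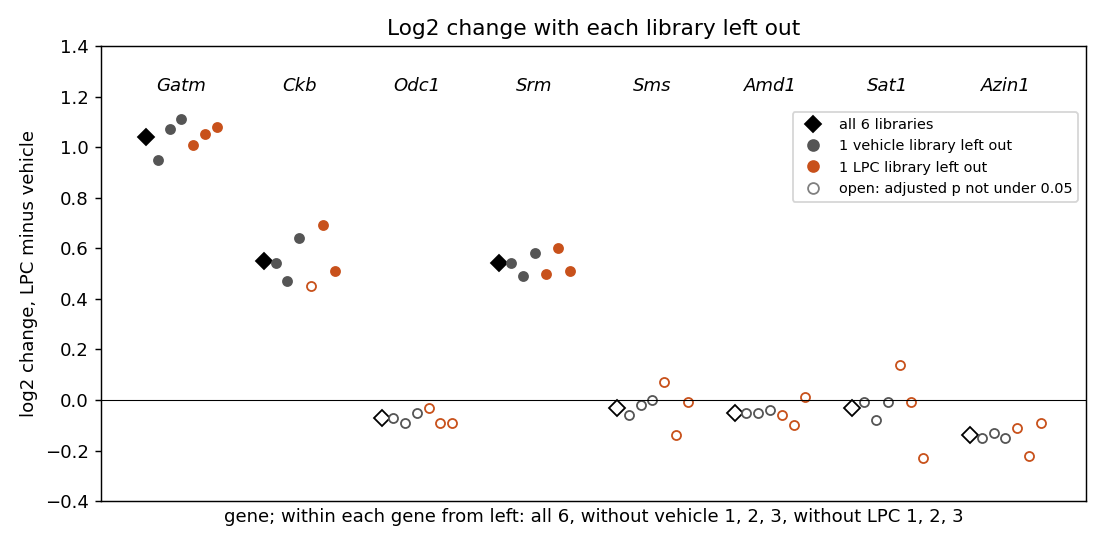
Log2 change, LPC minus vehicle, of the 8 tested members with all 6 libraries (diamonds) and with 1 vehicle library (grey) or 1 LPC library (orange) left out; open symbols have an adjusted p not under 0.05. Gatm stays at 0.95 to 1.11 and Srm at 0.49 to 0.60, Ckb turns open without LPC replicate 1 at 0.45, and Sat1 ranges from -0.23 to 0.14.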

How the data were processed

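RNA of 6 libraries was sequenced on a BGISEQ-500, and the authors aligned reads to GRCm38 with Bowtie2 and deposited FPKM from RSEM, per the labels' protocols. For tool versions, the sources used here name none. RSEM divides reads shared between copies by estimate. Of 18046 gene identifiers 99.3% matched the RefSeq table of GRCm38.p6, which gave coordinates, and 24 symbols turned into dates were restored. Depth was estimated as the read number at which low FPKM of genes with 1 transcript came nearest to whole reads (mean distance 0.145 to 0.159 reads).

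Changes were fitted with limma 3.58.1 in R 4.3.3 (trend on, a term for group and no covariate) on log2(FPKM + 1) over 10138 genes, with Benjamini-Hochberg adjustment, and the fit was tested on simulated data. Alternatives were quantile normalization, median centring, each library left out, a block for the replicate number, a pseudocount of 0.1, no filter, a filter at a mean of 5 FPKM, and removal of GC and length trends (natural splines, 4 degrees of freedom, for the 99% of tested genes with both). Length and GC share were those of the longest annotated transcript of a gene, which need not be the one expressed. No filter with a pseudocount of 0.1 was added after seeing the data. The members and lists were chosen with earlier results of these data known. Named were all 10 members, 11 further genes of fixed role whatever their values, and called pathway genes with a mean FPKM of 5 or more. Others named were chosen after their values were seen. Ckmt2, Agmat and Otc were not analysed here.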

Additional observations from a re-analysis of the deposited data

How the results depend on the processing

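Gatm was called in every alternative and no member was called lower in any. With no filter on low values, and with no filter and a pseudocount of 0.1, the log2 changes of Ckb (0.55 and 0.56) and Srm (0.54 and 0.54) no longer passed. Members called higher then numbered 1 and 1, pathway genes higher 1 and 1, all genes higher 108 and 96, and all genes lower 83 and 67, in fits that also tested 18046 genes. The replicate numbers paired the libraries only in part, with correlations of deviations of 0.018, 0.562 and 0.406, and vehicle replicate 1 did not correlate best with its own number. With the replicate block, all genes called higher and lower numbered 1180 and 1661, pathway genes higher 10 and lower 1, and members higher 3. With GC and length trends removed, 1008 genes were higher. With 1 library left out, the log2 change ran from 0.95 to 1.11 for Gatm, 0.45 to 0.69 for Ckb, 0.49 to 0.60 for Srm, -0.14 to 0.07 for Sms, -0.10 to 0.01 for Amd1 and -0.23 to 0.14 for Sat1. Members called higher then numbered 2 to 3, pathway genes higher 3 to 9, all genes higher 225 to 809 and lower 288 to 1217. The sign also turned for Sms (0.03 with quantile normalization, 0.02 with median centring, 0.06 with trends removed), Amd1 (0.04 with trends removed) and Sat1 (0.01 with median centring). The cause was not tested. Gamt and Slc6a8 are limited by their low number of reads.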

Other observations

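The nearest tested genes on either side of the 10 members, chosen by position, were 20 genes, of which 1 rose and 2 fell by the limma fit, a share close to the 13.7% called over all tested genes (5.82% higher and 7.91% lower). Trmt61a, which encodes the catalytic subunit of a tRNA methyltransferase, lies on chromosome 12 of GRCm38 at 111678105 to 111683902, 5.8 kb from Ckb. It was listed at 6.01, 5.78 and 6.49 FPKM in vehicle replicates 1 to 3 and at 11.1, 8.98 and 10.7 FPKM in LPC replicates 1 to 3 (log2 change 0.66, SE 0.10, limma adjusted p = 0.00188). Its groups were well apart, as those of Ckb were not, and on the other side of Ckb the kinase gene Mark3 had a log2 change of -0.08 (adjusted p = 0.655). Beside Gatm, Spata5l1 at a distance of 19.3 kb had a log2 change of -0.30 (adjusted p = 0.0494) and Slc28a2 of -0.22 (0.132), against 1.04 for Gatm. Beside Amd1, the kinase gene Cdk19 had a log2 change of -0.41 (0.0256).

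Of the 6 called pathway genes and 3 called members, LPC replicate 2 was the lowest LPC library for Ckb, Srm, Ckmt1, Dohh, Dhps, Asl and Atp13a2, but not for Gatm or Mat2a, where LPC replicates 3 and 1 were lowest. LPC replicate 2 also had the lowest FPKM sum of the LPC libraries (562046), so the order need not be particular to these genes. No test was made of this order.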
